A study of Mus musculus with 6 samples.

Results

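Small nucleolar RNAs (snoRNAs), the related small Cajal body RNAs (scaRNAs) and the non-coding genes that carry them were examined in cultured mouse eosinophils after interleukin-33 (IL-33). Members were the rows of the gene table whose symbol began with Snora, Snord, Snhg or Scarna followed by a number, together with Gas5. They numbered 131 of 23420 genes: 74 box C/D snoRNAs (Snord), 36 box H/ACA snoRNAs (Snora), 9 scaRNAs (Scarna) and 12 host genes (11 Snhg genes and Gas5). Wild-type mouse bone marrow cells had been expanded with SCF and FLT3-L and differentiated with IL-5 at 20 ng/mL to day 14. After removal of dead cells, 3 RNA samples were taken after 3 h with IL-33 at 2.5 ng/mL and 3 after PBS instead. Libraries were directional and made from rRNA-depleted total RNA. Whether a group's 3 libraries stand for different animals or different dishes is not stated. The p-values therefore reflect how far libraries of a group lie apart, and that spread may be technical.

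Box C/D snoRNAs work with fibrillarin to guide ribose methylation of ribosomal RNA, and box H/ACA snoRNAs work with dyskerin to guide its pseudouridylation. The scaRNAs guide the same modifications on the spliceosomal snRNAs in Cajal bodies. Most of these small RNAs lie inside introns and are trimmed out of the excised intron, so the mature snoRNA and the spliced host RNA come from 1 transcript but are degraded by different routes. Snhg genes and Gas5 are hosts whose spliced RNA is for the most part non-coding, and several of these RNAs are known substrates of nonsense-mediated decay.

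Most members were too low to test. Of the 131, 17 had no read in any library, and 42 reached a normalized count of 10 in at least 3 of the 6 libraries and entered the test: 16 box C/D snoRNAs, 14 box H/ACA snoRNAs, 6 scaRNAs and 6 hosts. Of the 89 that did not, the most abundant had 54 reads over the 6 libraries. The median untested box C/D snoRNA had 7 reads and the median untested box H/ACA snoRNA 12.5, so a change in these was hardly detectable at this depth. Of the 42, 1 (Snord57) reached 10 in the IL-33 group alone, and none in the PBS group alone. The tested box C/D snoRNAs had a median length of 81 bases against 80 for those not tested, but the longest had 238 against 135. The tested box H/ACA snoRNAs had a median of 132.5 bases and the tested scaRNAs one of 270 (range 70 to 414).

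The 11 members whose level changed by the test given with the results are all snoRNAs, 7 of box C/D and 4 of box H/ACA. All 11 rose. Whether the reads counted on them came from mature snoRNA or from unspliced host RNA was not tested. The sequences of 9 of the 11 are shown because the results turn on these transcripts. They are read from GENCODE vM21 (GRCm38/mm10) in 5′ to 3′ order. Capitals mark, in the box C/D snoRNAs, the first TGATGA (box C) within the first 30 bases and the last CTGA (box D) within the last 20 bases. Snord17 (chr2:144265979-144266216, minus strand) lies inside Snx5, and Snord15a (chr7:99482785-99482932, minus strand) and Snord15b (chr7:99479563-99479707, minus strand) both lie inside Rps3. Snord57 (chr2:130278016-130278087, plus strand) lies inside Nop56, Snord71 (chr8:109839295-109839379, plus strand) inside Ap1g1 and Snord2 (chr16:23108953-23109021, plus strand) inside Eif4a2.
Snord17: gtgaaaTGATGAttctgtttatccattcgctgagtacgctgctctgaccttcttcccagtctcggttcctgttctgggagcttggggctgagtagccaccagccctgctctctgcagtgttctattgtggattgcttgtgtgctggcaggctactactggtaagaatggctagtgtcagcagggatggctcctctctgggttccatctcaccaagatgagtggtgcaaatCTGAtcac
Snord15a: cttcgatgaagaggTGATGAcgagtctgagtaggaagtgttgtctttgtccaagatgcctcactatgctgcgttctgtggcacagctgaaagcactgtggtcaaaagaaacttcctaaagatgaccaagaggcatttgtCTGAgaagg
Snord15b: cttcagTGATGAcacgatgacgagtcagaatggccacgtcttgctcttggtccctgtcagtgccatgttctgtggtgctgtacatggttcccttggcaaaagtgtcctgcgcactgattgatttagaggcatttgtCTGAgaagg
Snord57: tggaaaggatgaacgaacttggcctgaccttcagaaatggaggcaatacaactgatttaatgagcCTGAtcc
Snord71: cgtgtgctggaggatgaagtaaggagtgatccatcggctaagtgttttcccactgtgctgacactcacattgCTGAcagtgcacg
Snord2: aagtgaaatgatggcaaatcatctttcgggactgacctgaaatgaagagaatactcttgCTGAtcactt
CTGA was in its window in all 16 tested Snord RNAs and in 98.0% of the 99 annotated Snord genes. TGATGA was found in 10 of the 16 (62.5%) and in 72.7% of the annotated genes; in Snord57, Snord71 and Snord2 these letters were not in the window. Snord17 was 238 bases long, against 69 to 148 for the other 5 shown. Snord15a and Snord15b shared 107 of 162 aligned positions (66.0%), with a longest common run of 21 bases.

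In the box H/ACA snoRNAs, capitals mark the ACA within the last 10 bases. Snora31 (chr14:75847905-75848034, plus strand) lies inside Tpt1, Snora3 (chr7:109520120-109520251, plus strand) inside Rpl27a and Snora65 (chr2:32963291-32963420, plus strand) inside Rpl12.
Snora31: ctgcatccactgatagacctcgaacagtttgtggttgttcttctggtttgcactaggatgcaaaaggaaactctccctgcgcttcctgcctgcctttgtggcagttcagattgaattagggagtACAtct
Snora3: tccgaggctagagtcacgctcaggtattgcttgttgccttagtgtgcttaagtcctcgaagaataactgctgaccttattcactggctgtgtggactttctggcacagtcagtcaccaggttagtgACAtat
Snora65: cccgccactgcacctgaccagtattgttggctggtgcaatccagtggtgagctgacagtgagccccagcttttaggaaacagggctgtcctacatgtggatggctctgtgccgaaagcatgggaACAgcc
ACA was present in this window in 13 of the 14 tested Snora RNAs (92.9%) and in 95.2% of the 42 annotated. The fourth box H/ACA snoRNA that rose, Snora74a, is longer, at 196 bases against 130 to 132 for these 3.

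Libraries held 8218303 to 10785521 gene-assigned reads. A single ribosomal precursor gene, Rn45s, took 24.3%, 59.6% and 54.8% of the reads in IL-33 replicates 1 to 3, and 24.8%, 23.3% and 13.7% in PBS replicates 1 to 3. IL-33 replicates 2 and 3 therefore stood apart, with 4355586 and 4229504 other reads against 6592044 to 7129435 in the other 4 libraries. Eosinophil identity was checked with 10 marker genes, whose summed normalized counts were 18843 to 31334 after IL-33 and 51552 to 62607 after PBS. Prg2 and Alox15 made up most of that sum. Siglec5 and Ccr3 overlapped between groups, and the other genes of the list were lower in every IL-33 library than in any PBS library. Among markers of other cells, the macrophage and dendritic sum was 4012 to 4961 against 1476 to 1774. Nearly all of that sum was Csf1r, and the other genes of the list stayed at or below 22.5. Neutrophil markers summed to 2090 to 2635 against 2654 to 3236 and mast cell and basophil markers to 88.1 to 327 against 148 to 421, with Mcpt4 at 0 in all 6 libraries. Lymphoid markers summed to 1.54 to 8.99 against 5.09 to 13.2, and erythroid and megakaryocyte markers to 171 to 461 against 211 to 499, with Ncr1 (natural killer cells) and Hba-a1 at 0 throughout. The part of these differences in the results was not tested, and in bulk RNA fewer cells of a type cannot be told apart from less RNA per cell.

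Box C/D snoRNAs were higher after IL-33 in a large share of the testable set. By limma with Benjamini-Hochberg adjustment over all 10544 tested genes (threshold 0.05, two-sided), 7 of 16 rose and 0 fell, where 17.4% of all tested genes rose, 14.4% fell and 31.9% changed in either direction. Without Snord57, which passed the filter on low values through the IL-33 group alone, 6 of 15 rose. At an unadjusted p under 0.05, 10 were higher and 0 lower, and edgeR called 7 higher and DESeq2 8 higher, with 0 lower in both. The groups did not overlap for 10 of the 16, all with IL-33 higher. Over all genes, 25.5% had no overlap with IL-33 higher and 24.7% with PBS higher (50.2% in either direction). The counts at an unadjusted p, by edgeR, by DESeq2 and of groups without overlap all include Snord57. For Snord57 the filter itself fixed the lack of overlap. The median log2 difference of the 16 was 1.04 (0.96 without Snord57), against -0.03 over all tested genes. The members thus divided into 7 that rose, by 1.13 to 2.28 on the log2 scale, and 9 that did not pass, whose differences ran from -0.74 to 1.21.

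Snord17, which guides modification of large-subunit rRNA, was the most abundant of them. Its normalized counts were 1040.3, 4222 and 5296 in IL-33 replicates 1 to 3 and 787, 677 and 393 in PBS replicates 1 to 3. All 3 IL-33 libraries were above all 3 PBS libraries, replicate 1 only narrowly. The means were 3519 ± 2213 and 619 ± 203 (SD, n = 3 each), a log2 difference of 2.26 (SE 0.57, limma adjusted p = 0.0202).

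Snord15a and Snord15b come from the gene of ribosomal protein S3 and are also large-subunit guides. Snord15a had normalized counts of 289, 1341 and 1149 after IL-33 and 221, 279 and 138 after PBS. The groups did not overlap, but IL-33 replicate 1 was only just above PBS replicate 2, with IL-33 replicates 2 and 3 far above both. The log2 difference was 1.90 (SE 0.55, limma adjusted p = 0.0328; means 926 ± 560 and 213 ± 71.2). Snord15b had 49.5, 172 and 103 against 39.6, 29.8 and 22.4, with replicate 2 the highest and replicate 1 the lowest IL-33 library, as for Snord15a. It rose by 1.65 (SE 0.44, limma adjusted p = 0.0257).

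Snord71 and Snord2 had some of the tightest groups. Snord71, a guide for the short rRNA of the large subunit, stood at 71.9, 93.8 and 103 after IL-33 and 37.3, 32.7 and 34.2 after PBS. IL-33 replicate 1 was nearer to the other 2 than to any PBS library, and the groups were well apart (89.7 ± 16.1 against 34.8 ± 2.31). The log2 difference of 1.33 (SE 0.24, limma adjusted p = 0.0058) had the smallest adjusted p of all 42 tested members. Snord2 stood at 57.5, 83.0 and 103 against 36.5, 35.7 and 34.9, again with no overlap. It rose by 1.13 (SE 0.27, limma adjusted p = 0.0169).

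Snord57 and Snord55 rested on fewer reads. Snord57, a small-subunit guide within the gene of the snoRNP core protein Nop56, had 14, 10 and 14 reads after IL-33 and 3, 2 and 7 after PBS, or 12.6, 15.4 and 23.7 against 2.33, 1.46 and 4.89 normalized counts. The groups did not overlap, and the log2 difference of 2.28 (SE 0.50, limma adjusted p = 0.0123) was the largest among the members. It could enter the test only with a difference. Snord55 had 22.5, 78.4 and 79.7 against 23.3, 13.1 and 11.9, so that IL-33 replicate 1 lay below PBS replicate 1 and the groups overlapped. Its difference was 1.70 (SE 0.52, limma adjusted p = 0.0385).

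**Figure D1:**
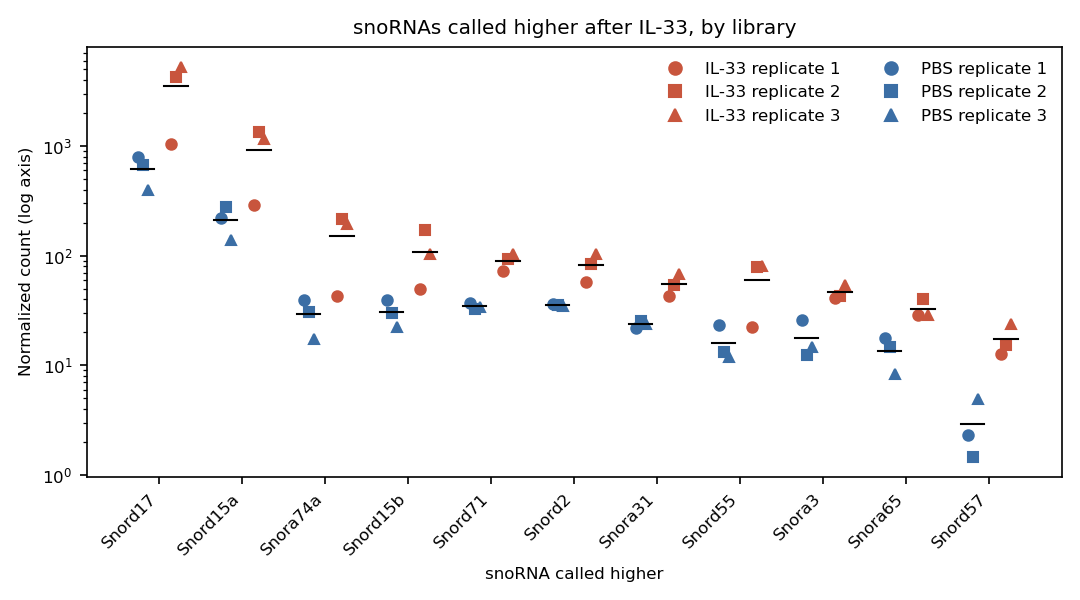
Normalized counts of the 11 snoRNAs that rose, per library, on a log axis. Points are libraries (red IL-33, blue PBS, with circles for replicate 1, squares for 2 and triangles for 3) and bars are group means. IL-33 replicate 1 was the lowest IL-33 point for each of the 11, though almost level with replicate 3 for Snora65. It was above all 3 PBS points for 10 of the 11.

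Of the 9 box C/D snoRNAs that did not pass, Snord83b came nearest, with a log2 difference of 1.21 (limma adjusted p = 0.0523), followed by Snord22 at 0.92 (limma adjusted p = 0.0685) and Snord66 at 0.96. Snord96a, Snord72 and Snord43 had differences of 0.53, 0.26 and 0.05. The 3 with lower means after IL-33 were Snord100 (-0.74), Snord104 (-0.73) and Snord49a (-0.65). Snord104 had 10.8, 7.69 and 22.0 against 22.5, 21.8 and 18.9, and its groups overlapped.

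Box H/ACA snoRNAs showed 4 of 14 higher and 0 lower by limma, where the shares over all genes were again 17.4% and 14.4%. At an unadjusted p under 0.05, 8 were higher and 0 lower. Both edgeR (4 higher) and DESeq2 (5 higher) called 0 lower. The groups did not overlap for 7 of the 14, all with IL-33 higher. Over all tested genes, 25.5% had no overlap with IL-33 higher and 50.2% in either direction. The median log2 difference was 0.94. Snora74a, a long guide with targets in large-subunit rRNA, had normalized counts of 43.2, 217 and 195 after IL-33 and 39.6, 30.6 and 17.5 after PBS. Replicate 1 was again the lowest of the IL-33 group, just above PBS replicate 1. Its log2 difference was 2.10 (SE 0.60, limma adjusted p = 0.0312; means 152 ± 94.6 and 29.2 ± 11.1).

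The other 3 had IL-33 libraries closer together. Snora3, within the gene of ribosomal protein L27a, had 41.4, 43.1 and 54.2 against 25.6, 12.4 and 14.7 (log2 difference 1.40, SE 0.33, limma adjusted p = 0.0170). Snora31, within Tpt1, the gene of translationally controlled tumour protein, had 43.2, 53.8 and 67.8 against 21.7, 25.5 and 23.8 (1.16, SE 0.27, limma adjusted p = 0.0151). Snora65, a large-subunit guide within the gene of ribosomal protein L12, had 28.8, 40.0 and 28.8 against 17.9, 14.6 and 8.39 (1.24, SE 0.36, limma adjusted p = 0.0326). In none of the 3 did the groups overlap.

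The 10 that did not pass had log2 differences from -0.17 (Snora75) to 1.58 (Snora81). Snora81, from Eif4a2 like Snord2, had 28.8, 126 and 66.1 against 31.1, 24.7 and 10.5 (limma adjusted p = 0.0648). IL-33 replicate 1 lay among the PBS libraries there. Snora7a (0.93, limma adjusted p = 0.0562), Snora78 (1.07, limma adjusted p = 0.0708) and Snora64 (0.95, limma adjusted p = 0.0750) followed. Snora17, Snora30, Snora23 and Snora70 had differences of 0.70, 0.68, 0.47 and 0.41, and Snora28 one of -0.07.

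The size of the difference varied between the IL-33 libraries. IL-33 replicate 1 was the lowest of its group for all 11 snoRNAs that rose, though almost level with replicate 3 for Snora65. The Rn45s share of replicate 1 was also the lowest of the 3. The median log2 level of the 16 tested box C/D snoRNAs relative to the PBS mean was 0.69 in replicate 1, 1.10 in replicate 2 and 1.32 in replicate 3. For the 14 tested box H/ACA snoRNAs it was 0.63, 1.09 and 1.07, and over all tested genes 0.01, -0.03 and -0.03. Among the 11 that rose, which were chosen by this comparison, it was 0.81, 2.17 and 1.76. Rn45s itself was higher by 2.15 (SE 0.60, limma adjusted p = 0.0286). Whether these reads came from more precursor or from rRNA left by the depletion was not tested. Nor was the part of Rn45s in the snoRNA differences.

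With IL-33 replicate 1 as the only IL-33 library, a choice made after the data were seen, limma assumes that it varies like the PBS libraries. Of the 11 calls, 8 were then lost and 3 kept, those of Snord71 (1.03), Snord17 (0.81) and Snora3 (1.26). As these were chosen with the same library in the test, this is no independent check of them. Snora64 passed in that fit only, with 50.3 in replicate 1 against 31.1, 15.3 and 16.8 (1.29, limma adjusted p = 0.0277).

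**Figure D2:**
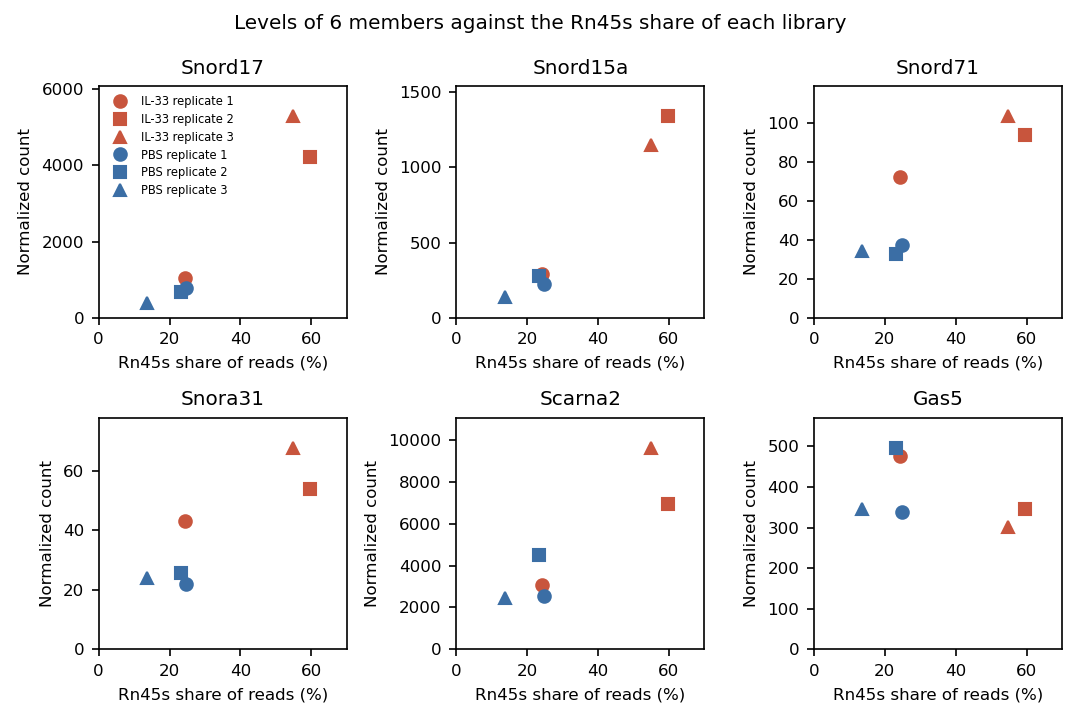
Normalized count of Snord17, Snord15a, Snord71, Snora31, Scarna2 and Gas5 (vertical axes) against the Rn45s share of the library's reads in percent (horizontal axes), 1 point per library. IL-33 replicates 2 and 3 lie at 59.6% and 54.8% and the other 4 libraries at 13.7% to 24.8%. IL-33 replicate 1 lies above all 3 PBS points for Snord17, Snord15a (289 against at most 279), Snord71 and Snora31, and among them for Scarna2 and Gas5.

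Summed over each class, the box C/D snoRNAs had 293, 934 and 994 CPM (reads scaled to a common total, with Rn45s left out of it) after IL-33 and 275, 253 and 173 after PBS. The box H/ACA snoRNAs had 74.2, 109 and 85.8 against 72.2, 49.5 and 47.2. On this scale replicate 1 exceeded the highest PBS library by little in both classes. The largest part of the box C/D sum was Snord17, at 162, 630 and 739 CPM against 154, 135 and 79.2.

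How many snoRNAs passed changed with the libraries kept and with the scaling. With 1 library left out, limma called 9 box C/D snoRNAs higher without IL-33 replicate 1, 2 without replicate 2 and 4 without replicate 3, and 4, 1 and 2 without PBS replicates 1, 2 and 3. For box H/ACA snoRNAs these counts were 7, 1 and 3, and 1, 0 and 0 (5 and 4 at an unadjusted p under 0.05 for the last 2). Scaling every library to an equal total moved the median of all genes from -0.03 to -1.06, and to -0.45 with Rn45s left out of the totals. The median of the 30 tested snoRNAs was 0.99 above that of all genes as deposited, 1.04 above it with equal totals and 1.01 above it with equal totals without Rn45s. On these scales 1 (Snord17) and 7 of the 30 passed as higher, and Snord104 passed as lower on each (-1.69 and -1.12). Snord71 passed in every alternative run except equal totals, where its difference was 0.31 (limma adjusted p = 0.432).

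**Figure D3:**
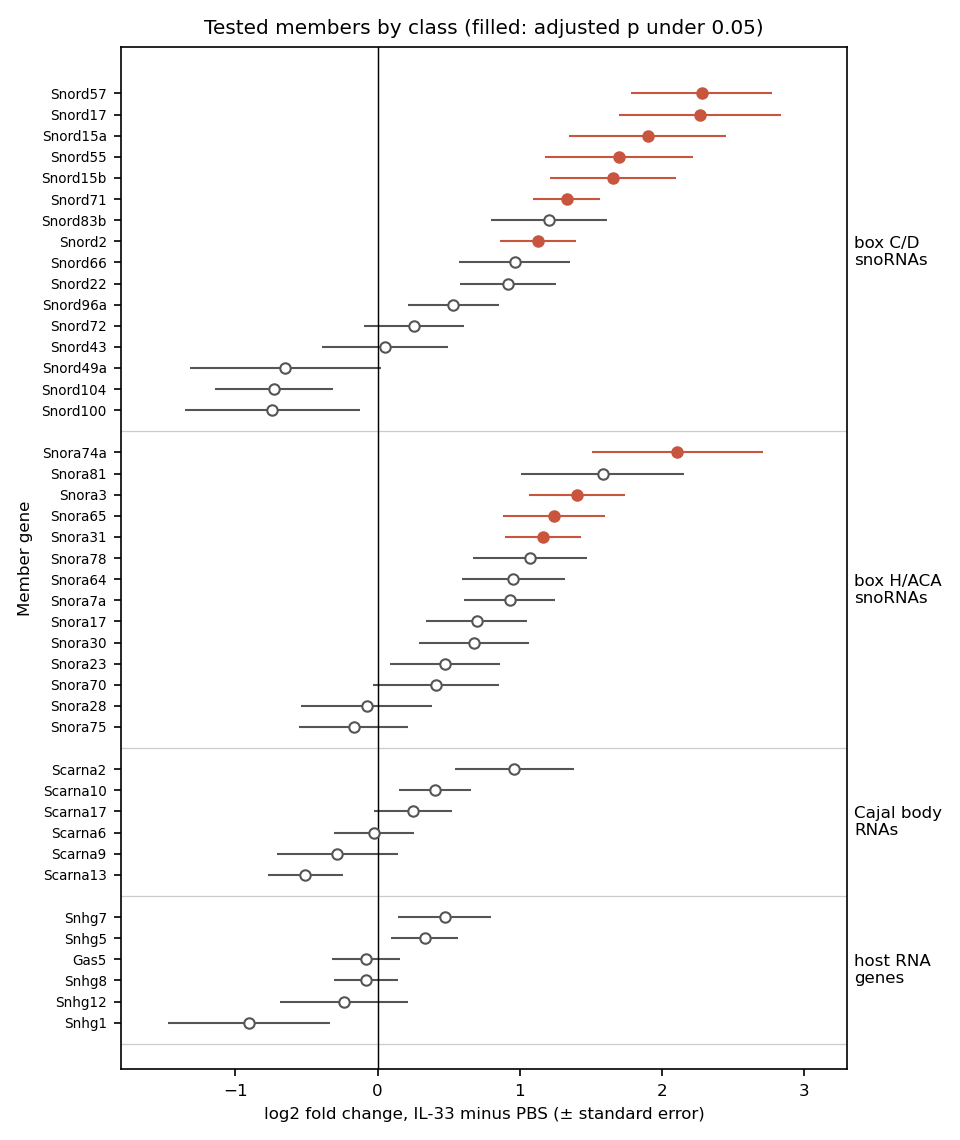
Log2 difference between IL-33 and PBS with its standard error for the 42 tested members, in order within each of the 4 classes, with those passing the limma threshold filled. The 11 filled points lie between 1.13 and 2.28 and are all box C/D or box H/ACA snoRNAs.

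No scaRNA passed the test. By limma 0 of 6 passed in either direction, where 31.9% of all tested genes did, with 1 higher and 0 lower at an unadjusted p under 0.05; edgeR called 0 and DESeq2 1, Scarna2 (1.06). The median log2 difference was 0.11, and 1 of the 6 had groups without overlap, with PBS higher, against 50.2% of all genes in either direction. Scarna2, which guides modification of U2 snRNA and has a gene of its own, had 3061, 6974 and 9652 against 2531, 4531 and 2427. IL-33 replicate 1 lay between PBS replicates 1 and 2, so the groups overlapped, and the log2 difference was 0.96 (SE 0.42, limma adjusted p = 0.109). Without IL-33 replicate 1, 2 scaRNAs passed as higher, Scarna2 (1.44) and Scarna10 (0.61).

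Scarna10 and Scarna6 guide modification of U5 snRNA. Scarna10, within Ncapd2, had 617, 795 and 1132 against 541, 768 and 575 (log2 difference 0.40, limma adjusted p = 0.239). Scarna6, within Atg16l1, had 503, 348 and 237 against 401, 291 and 375, a difference of -0.03 whose sign changed with edgeR and DESeq2 (0.019 and 0.038). Both thus had overlapping groups. Scarna13, carried by Snhg10, was the one with separate groups, at 31.5, 26.1 and 27.1 against 41.9, 48.0 and 32.8 (-0.51, SE 0.26, limma adjusted p = 0.168; with libraries scaled to equal totals it passed as lower). Scarna17 (0.25) and Scarna9 (-0.28) were near no difference.

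Per annotated length, the abundant small RNAs had far higher levels than the Snhg hosts and Gas5. Host length counted every base in any annotated exon, 3760 of the 4118 bases of Gas5. Host values are too low where the spliced RNA is shorter than that. The coding genes that enclose small RNAs were not put on this scale. In mean normalized counts per 100 bases over the 6 libraries, Scarna2 had 1175, Snord17 869, Snord15a 385, Scarna10 227 and Scarna6 136. Snord2 (84.8), Snord71 (73.2), Scarna17 (59.6), Snord55 (48.3), Snord15b (47.9) and Snora74a (46.1) followed. Among hosts Snhg8 had 11.3, Gas5 10.2, Snhg5 9.49 and Snhg1 1.33. Not every small RNA was far above the hosts: Scarna13 had 12.6, close to Snhg8 and Gas5. The libraries of Scarna2 (586 to 2331) and Snord17 (165 to 2225) overlapped on this scale, and Snord17 was above Scarna2 in IL-33 replicate 2 only.

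None of the 6 tested host genes passed the test. By limma 0 passed in either direction, beside 31.9% of all tested genes, 0 did so even at an unadjusted p under 0.05, and edgeR and DESeq2 called 0. Their median log2 difference was -0.08. Gas5 (chr1:161034422-161038539, plus strand), which carries many box C/D snoRNAs and whose spliced RNA accumulates when growth stops, had 476, 344 and 302 after IL-33 and 339, 497 and 346 after PBS. The libraries of the groups were intermingled (374 ± 90.6 against 394 ± 89.1, SD, n = 3 each), with a log2 difference of -0.08 (SE 0.24, limma adjusted p = 0.814).

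Snhg1 (chr19:8723475-8726443, plus strand), the host of Snord22 and its neighbours, had the largest standard error of the 6, with 64.7, 21.5 and 10.2 against 51.3, 43.7 and 45.4. IL-33 replicate 1 was the highest of all 6 libraries and the other 2 the lowest, and the difference was -0.90 (SE 0.57, limma adjusted p = 0.244). Without IL-33 replicate 1 it was -1.59 and passed. Snhg5 had 177, 197 and 169 against 179, 158 and 105 (0.33, limma adjusted p = 0.301), and Snhg8 had 111, 93.8 and 76.3 against 98.6, 109.9 and 87.4 (-0.08, limma adjusted p = 0.796). Snhg7 (0.47) and Snhg12 (-0.23) did not pass either. Snhg8 alone passed as lower when libraries were scaled to equal totals.

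The snoRNAs and the genes that enclose them were then set against each other. The comparison held 27 tested small RNAs lying inside 24 tested genes on the same strand, and the small RNA had the higher log2 difference in 22 of the 27. The median difference was 0.93 for the small RNAs and -0.29 for their enclosing genes. Of the small RNAs in these pairs 9 rose, and the enclosing gene rose in 2 pairs and fell in 5, which hold 4 genes (Rpl3 encloses 2 of the small RNAs). Over all tested genes 17.4% rose and 14.4% fell. The ratio of small RNA reads to host reads does not depend on how libraries are scaled. It was higher in all 3 IL-33 than in all 3 PBS libraries for 15 of the 27 pairs (55.6%) and lower for 0. Of these 15 pairs, 8 hold a snoRNA that rose, for which a higher ratio is partly built in. Among these is Snord57, which passed the filter through the IL-33 group alone. No share over other pairs of genes was computed to set beside this count. With 3 libraries against 3 the smallest 2-sided p of an exact permutation test is 0.1, so no single pair can pass. Of the small RNAs, 16 overlap an annotated exon of a host transcript, among them Snora7a, Snora3, Snord2 and Scarna10. Snord66 does so with only 1.3% of its bases. Whether reads lying on both genes were given to 1 of them or dropped is not known here.

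The 9 snoRNAs of these pairs that rose lie in 8 genes, of which 1 (Ap1g1) rose and 0 fell by limma. Per 100 reads of Snx5, a sorting nexin, Snord17 had 109, 498 and 676 reads after IL-33 and 84.8, 97.8 and 58.7 after PBS, while Snx5 itself had a log2 difference of 0.19 (limma adjusted p = 0.455). The ratio did not overlap between groups. Per 100 reads of Eif4a2, a translation initiation helicase, Snord2 had 4.85, 12.7 and 21.6 against 3.57, 3.28 and 3.37, and for Snora31 per 100 Tpt1 reads the values were 6.87, 7.56 and 7.49 against 3.53, 4.73 and 3.94. Both hosts had no called change (-0.54 and 0.34, limma adjusted p = 0.192 and 0.184).

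Ribosomal protein genes enclose several of the pairs with large shifts. Snora7a per 100 reads of Rpl32 stood at 10.9, 46.8 and 58.8 against 7.14, 4.99 and 4.96, without overlap, and Rpl32 fell by 1.48 (limma adjusted p = 0.0288). For Snora3 and Rpl27a the ratio was 23.2, 36.4 and 65.3 against 15.1, 6.01 and 7.64. Snord15a per 100 reads of Rps3 overlapped between groups, at 4.59, 18.5 and 17.3 against 3.88, 5.98 and 3.08.

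For Scarna10 the host changed and the scaRNA did not pass. Ncapd2, a condensin subunit, fell from 387, 499 and 342 after PBS to 109.7, 128 and 91.5 after IL-33 (-1.89, SE 0.22, limma adjusted p = 0.000955). Scarna10 reads per 100 Ncapd2 reads were 562, 623 and 1237 against 140, 154 and 168. IL-33 replicate 1 was here close to replicate 2. In Snord22 and Snhg1 the ratio was 34.7, 157 and 367 against 40.9, 33.3 and 27.7, and replicate 1 lay among the PBS libraries.

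Ap1g1 and Eif4g1 were hosts that rose. Ap1g1, an adaptor subunit of clathrin-coated vesicles, had 2056, 3057 and 3259 against 1517, 1306 and 1296 (1.00, SE 0.21, limma adjusted p = 0.0101). Snord71 rose along with it, and per 100 Ap1g1 reads it stood at 3.50, 3.07 and 3.17 against 2.46, 2.51 and 2.64, still without overlap. Eif4g1, a scaffold of translation initiation, rose by 1.04 (limma adjusted p = 0.00654). Its Snord66 did not pass, and the ratio overlapped, at 0.355, 0.401 and 0.341 against 0.446, 0.427 and 0.251.

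**Figure D4:**
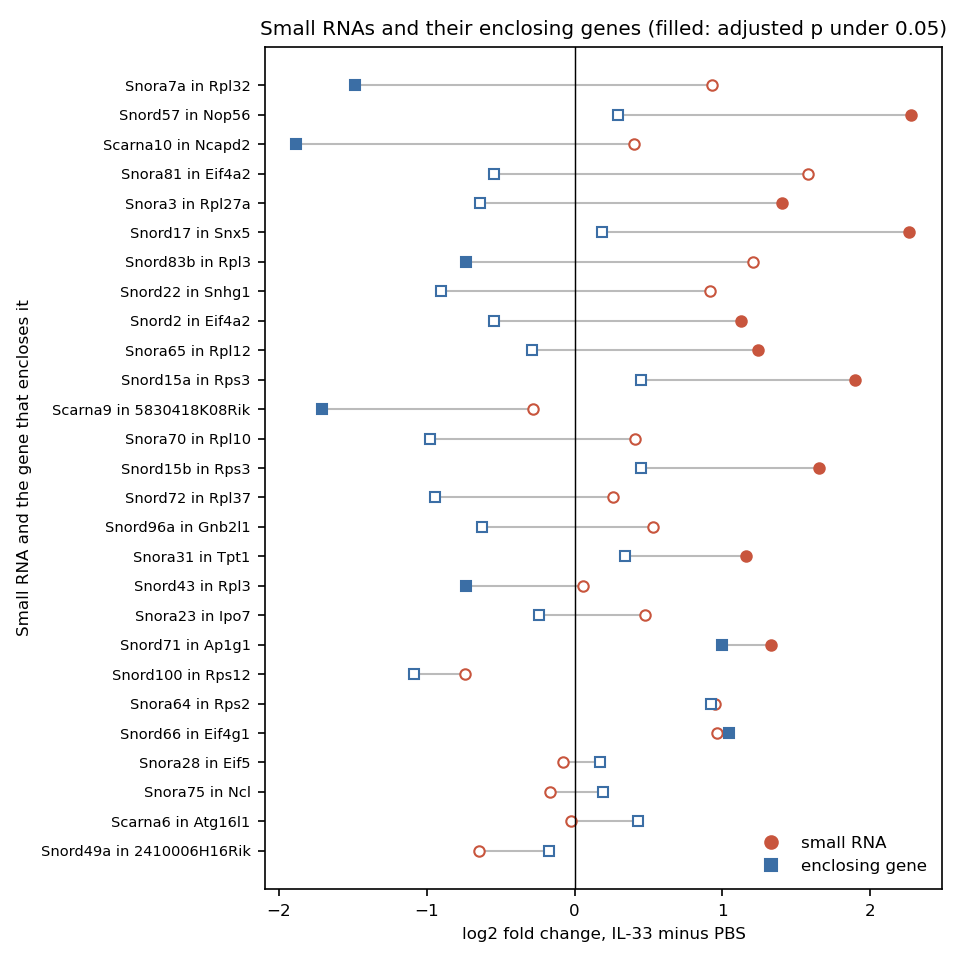
Log2 fold change (IL-33 minus PBS, horizontal axis) of each tested small RNA (red circles) and of the gene that encloses it (blue squares), 27 pairs ordered by the difference between them, filled where the limma adjusted p was under 0.05. The small RNA lies to the right of its enclosing gene in 22 pairs.

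Over all 66 tested genes that enclose a member, tested or not, 8 rose and 11 fell by limma, with a median log2 difference of -0.20. Those shares stand beside 17.4% and 14.4% for all tested genes. The proteins that bind, build or cap snoRNPs were a list of 23 genes, of which 21 were tested. Of these 2 rose and 1 fell, smaller shares than the 17.4% and 14.4% over all tested genes, with a median of 0.18. Tgs1, the methyltransferase that makes the trimethylguanosine cap of snRNAs and some snoRNAs, had 851, 1186 and 912 against 244, 221 and 220.0. Its groups were far apart and IL-33 replicate 1 was close to replicate 3 (2.09, SE 0.18, limma adjusted p = 0.000307). Rrp9, a protein of the U3 snoRNP, had 99.8, 131 and 180 against 56.7, 56.8 and 57.3 (1.21, SE 0.25, limma adjusted p = 0.0104).

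Ruvbl1, an ATPase of the assembly machinery, fell, with 12.6, 21.5 and 23.7 against 31.8, 40.7 and 44.0 (-1.01, SE 0.33, limma adjusted p = 0.0467). That call was lost with no filter on low values, and without IL-33 replicate 2 or any single PBS library. The core proteins that could be tested did not pass, and Snu13 (box C/D) and Nop10 (box H/ACA) were below the filter. For box C/D the tested ones were Fbl (-0.46), Nop58 (0.03) and Nop56 (0.29), and for box H/ACA Dkc1 (-0.13), Nhp2 (-0.78) and Gar1 (0.73).

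Genes of RNA trimming and decay, a list of 26 that were all tested, had 6 that rose and 3 that fell, with a median of -0.05, beside shares of 17.4% and 14.4% over all tested genes. Among factors of nonsense-mediated decay, Upf1 (0.70, limma adjusted p = 0.0126) and Smg5 (0.67, limma adjusted p = 0.0226) rose and Upf2 (-0.86, limma adjusted p = 0.0278) fell. In the exosome, which trims snoRNA ends, Exosc3 (1.78) and Exosc6 (2.04) rose and Exosc8 (-0.96) fell. Papd5, a poly(A) polymerase acting on nuclear small RNA ends, rose by 1.29 (limma adjusted p = 0.0181), and Xrn1, the main cytoplasmic exonuclease from the 5′ end, had a log2 difference of -1.29 (SE 0.28, limma adjusted p = 0.0128). With each library scaled to an equal total, Upf1 had a difference of -0.34. Without PBS replicates 1, 2 or 3 in turn, 1, 0 and 0 genes of this list rose and 1, 0 and 0 fell by limma, and without IL-33 replicate 2, 2 rose and 0 fell.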

How the data were processed

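Total RNA of 6 libraries (3 IL-33, 3 PBS) was sequenced by the authors. Per the submitters' processing notes, HISAT2, HTSeq, DESeq2 and the mm10 build were used; the sources used here give no versions, annotation, read length or counting strand. The deposited table holds normalized signal per gene, gene counts divided by a size factor per library, as recovered from the values: 100% came out as whole reads within 0.1 of a read. Depth came from these recovered reads.

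Genes with a normalized count of at least 10 in 3 or more libraries (10544 of 23420) were tested with limma 3.58.1 (R 4.3.3, empirical Bayes with trend) on log2(normalized count + 1), with Benjamini-Hochberg adjustment over all of them and a threshold of 0.05. Differences are on that scale, on which low genes appear to change less than they did. CPM values are recovered reads scaled to equal totals without Rn45s. Alternatives were a pseudocount of 5, no filter, equal totals with and without Rn45s, a replicate block, edgeR 4.0.16 and DESeq2 1.42.0 on recovered reads, each library left out, and, added after the data were seen, IL-33 replicate 1 alone. Of the 131 symbols, 126 matched 1 GENCODE vM21 gene, which gave positions, sequences and same-strand enclosing genes.

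Members and lists were chosen with earlier results of these data known. Named are, per class, up to 8 members that passed in each direction and up to 5 of the most abundant, selected hosts, the enclosing genes, and genes of the protein lists. Other tested members are given for completeness; a few values of named genes, a sequence and 1 small RNA and host pair are not reported here.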

Additional observations from a re-analysis of the deposited data

How the results depend on the processing

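The 11 snoRNAs kept their direction in every alternative run, while the calls depended on libraries and scaling. Of the 11, edgeR and DESeq2 kept all, 9 passed with no filter, 7 with equal totals without Rn45s and 1 with equal totals. Counts are given as higher/lower where both are needed.

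With equal totals the calls were 264 and 5287 over all genes, 1 and 1 in box C/D, 0 and 0 in box H/ACA (1 and 1 at an unadjusted limma p under 0.05), 1 lower scaRNA, 1 lower host (Snhg8), 1 and 9 snoRNP genes, 1 and 14 decay genes, and 0 and 34 enclosing genes. With equal totals without Rn45s they were 951 and 3570 over all genes, 4 and 1 in box C/D, 1 lower scaRNA, 4 lower snoRNP genes, 3 and 11 decay genes, and 3 and 28 enclosing genes. With no filter, 2 box C/D snoRNAs and 0 snoRNP genes passed as lower. DESeq2 called 1 scaRNA and 13 enclosing genes higher.

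Leaving out 1 library gave 706 to 2989 genes higher and 354 to 2971 lower, 1 to 9 box C/D snoRNAs higher and 0 to 1 lower, 0 to 7 box H/ACA snoRNAs higher, 0 to 2 scaRNAs higher and 0 to 1 hosts lower. For snoRNP genes this gave 1 to 5 higher and 0 to 3 lower, for decay genes 0 to 8 and 0 to 9, and for enclosing genes 3 to 13 and 1 to 30. The highest counts came without IL-33 replicate 1. With that replicate alone, 2 box C/D and 2 box H/ACA snoRNAs passed as higher, 2 snoRNP genes as lower, and 17 enclosing genes as higher and 6 as lower.

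Some differences, none of them of the 11, changed sign. With equal totals these were Snhg5 (-0.70), Snhg7 (-0.53), Scarna2 (-0.079), Scarna10 (-0.64), Scarna17 (-0.77), Snora64 (-0.046), Atg16l1 (-0.61), Tpt1 (-0.70), Rps2 (-0.12), Rps3 (-0.59), Snx5 (-0.85), Nop56 (-0.74), Ap1g1 (-0.043) and Upf1 (-0.34). Without Rn45s in the totals they were Snhg5 (-0.091), Scarna10 (-0.020), Scarna17 (-0.17), Tpt1 (-0.085), Snx5 (-0.24) and Nop56 (-0.13). Scarna6 changed to 0.019 with edgeR and 0.038 with DESeq2. With 1 library left out, Scarna6 ran from -0.29 to 0.25, Gas5 from -0.27 to 0.099, Snhg8 from -0.21 to 0.058 and Snhg12 from -0.57 to 0.16. The highest values came without IL-33 replicate 3 for Scarna6 and Snhg8, PBS replicate 2 for Gas5 and IL-33 replicate 2 for Snhg12. With IL-33 replicate 1 alone Gas5 (0.29), Snhg1 (0.46), Snhg8 (0.18), Scarna10 (-0.0093), Scarna6 (0.51), Scarna17 (-0.23), Rpl12 (0.12) and Eif4a2 (0.18) changed sign. The cause was not tested beyond what each setting changes by construction.

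The replicate numbers were not used as pairs in the main test. Same-numbered libraries had deviations from their group means correlated at 0.05, 0.24 and -0.16, and IL-33 replicate 1 correlated best with PBS replicate 3. With 3 libraries per group, such values cannot settle whether the libraries were paired. With the replicate number as a block, 1620 genes passed as higher and 1298 as lower, 6 box C/D and 4 box H/ACA snoRNAs as higher, and 0 snoRNP genes as lower (Ruvbl1, -1.01, limma adjusted p = 0.0527); Snord55 was the snoRNA that no longer passed. Low counts left 89 of 131 members outside the test, and why their counts were low was not tested.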

Other observations

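Some members below the filter had normalized counts that did not overlap between groups, and 3 are named after their values were seen. Snord68 had 11, 4 and 7 reads in IL-33 replicates 1 to 3 and 3, 4 and 3 in PBS replicates 1 to 3. Snord65 had 3, 0 and 0 reads against 12, 8 and 7, and Snord82 had 1, 0 and 0 against 2, 9 and 9. With no filter on low values limma gave Snord68 a log2 difference of 1.55 (adjusted p = 0.0405), Snord65 one of -2.27 (adjusted p = 0.0291) and Snord82 one of -2.07 (adjusted p = 0.0300). These rest on so few reads that counting error alone is large. The hosts Snhg3 (8.09, 4.61 and 5.08 normalized counts after IL-33 against 3.88, 9.46 and 7.69 after PBS) and Snhg6 (4.50, 3.08 and 0 against 5.44, 1.46 and 3.49) were also below the filter, and their groups overlapped.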
